A study of Mus musculus with 18 samples.

Results

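Gluconeogenesis is the making of glucose in the liver from lactate, amino acids and glycerol. 10 mouse genes of this pathway were followed, taken from a list of gluconeogenic genes by their symbol in the RNA-seq count table, which holds 15572 genes in all. They are 5 enzymes (Pcx, Pck1, Fbp1, G6pc and Got1), the glucose 6-phosphate transporter Slc37a4, the glucagon receptor Gcgr, and 3 regulators of their transcription (Ppargc1a, Foxo1 and Creb3l3). All 10 were found in the count table, all 10 passed the filter on low counts, and all 10 had an annotated transcript start for the chromatin data.

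The livers came from C57BL/6J mice kept on chow, 12 weeks of age by the study's methods, which were fasted overnight, or fasted and then refed a diet high in carbohydrate. The labels give 6 h of refeeding, whereas 8 to 16 h is the span in the methods. JMJD1C-LKO mice carry a floxed Jmjd1c gene that albumin-Cre deletes, so the loss is meant for hepatocytes, and WT mice were littermates. Which other liver cells kept the gene was not measured here. RNA-seq compared JMJD1C-LKO refed with WT refed liver, ATAC-seq covered both of these and WT fasted liver, and ChIP-seq of H3K9me2 covered WT liver only, fasted or refed, with 2 samples in each group. Each RNA library was a pool of RNA, whereas each chromatin sample was 1 liver, so the spread between RNA libraries is between pools. No fasted RNA library and no H3K9me2 sample of JMJD1C-LKO liver was analysed here.

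The first steps of gluconeogenesis carry pyruvate to phosphoenolpyruvate: Pcx (pyruvate carboxylase) makes oxaloacetate in mitochondria, and Pck1 (cytosolic phosphoenolpyruvate carboxykinase) uses it in the cytosol. Fbp1 (fructose-1,6-bisphosphatase) and G6pc (the catalytic subunit of glucose 6-phosphatase) bypass the irreversible steps of glycolysis. Glucagon raises the pathway in fasting through cAMP, CREB and the coactivator that Ppargc1a encodes, while insulin lowers it in the fed state, in part by keeping the factor encoded by Foxo1 out of the nucleus. H3K9me2, dimethylation of lysine 9 of histone H3, is a mark usually tied to silent chromatin, and JMJD1C belongs to a family of enzymes that can remove it. ATAC-seq reads gather where a transposase can reach DNA, which marks open chromatin.

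The sequences upstream of 5 starts are shown because the classical cAMP-regulated promoters (Pck1, G6pc) and the starts with an ATAC-seq summit in at least 1 liver (Pcx, Got1, Creb3l3) are the ones the comparisons turn on. Each runs 5′ to 3′ in the direction of transcription and ends at the base before the start, and the sequences are from RefSeq on GRCm38.p6. Positions are counted back from the start. Capitals mark a match on either strand to 1 of 7 motifs that were searched: the cAMP response element TGACGTCA and its core TGACG, which is part of the longer motif, the FOXO core GTAAACA, the E-box CACGTG, the HNF4 motif CAAAGTCCA, the CCAAT box and the TATA box TATAAA.

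The 250 bases of Pck1 (chr2:173152823-173153072, plus strand) hold TGACG on the reverse strand, starting at -90, within its known cAMP-responsive region. Those of G6pc (chr11:101367466-101367715, plus strand) hold CCAAT on both strands and TATAAA at -29.
Pck1: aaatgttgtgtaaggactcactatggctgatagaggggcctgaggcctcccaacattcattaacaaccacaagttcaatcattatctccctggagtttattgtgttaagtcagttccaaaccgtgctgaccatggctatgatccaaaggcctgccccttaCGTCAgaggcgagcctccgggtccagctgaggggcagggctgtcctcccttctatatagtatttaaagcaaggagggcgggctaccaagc
G6pc: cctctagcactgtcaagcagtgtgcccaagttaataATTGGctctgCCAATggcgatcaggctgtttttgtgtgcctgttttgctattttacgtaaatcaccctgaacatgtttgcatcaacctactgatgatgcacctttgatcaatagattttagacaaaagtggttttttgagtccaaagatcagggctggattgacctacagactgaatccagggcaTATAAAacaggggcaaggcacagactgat

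The upstream start of Pcx (chr19:4510222-4510471, plus strand) holds CACGTG at -248 and 3 CCAAT boxes, at -180, -51 and -21. Got1 (chr19:43524606-43524855, minus strand) holds 5 CCAAT boxes, 1 on the forward and 4 on the reverse strand.
Pcx: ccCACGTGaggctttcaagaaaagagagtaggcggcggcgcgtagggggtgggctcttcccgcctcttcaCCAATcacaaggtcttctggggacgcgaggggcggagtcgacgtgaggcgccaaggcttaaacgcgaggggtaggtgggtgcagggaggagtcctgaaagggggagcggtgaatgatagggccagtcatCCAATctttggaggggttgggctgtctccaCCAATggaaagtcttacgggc
Got1: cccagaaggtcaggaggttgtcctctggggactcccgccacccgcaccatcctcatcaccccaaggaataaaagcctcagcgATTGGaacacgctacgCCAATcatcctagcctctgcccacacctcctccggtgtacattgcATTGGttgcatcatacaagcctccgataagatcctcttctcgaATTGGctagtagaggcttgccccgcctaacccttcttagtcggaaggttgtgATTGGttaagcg

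Creb3l3 has 2 annotated starts, and the sequence before the internal start (chr10:81092592-81092841, minus strand) lies in an intron of the longer transcript. The window of 200 bases around the ATAC-seq summits of the fasted livers (chr10:81092792-81092991, minus strand) overlaps it and holds TGACG at -342 and -239.
Creb3l3 internal start: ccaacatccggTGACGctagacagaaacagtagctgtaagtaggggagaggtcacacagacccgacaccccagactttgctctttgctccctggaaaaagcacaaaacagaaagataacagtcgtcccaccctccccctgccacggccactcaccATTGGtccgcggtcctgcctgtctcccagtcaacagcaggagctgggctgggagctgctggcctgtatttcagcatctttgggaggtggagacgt
Creb3l3 summit window: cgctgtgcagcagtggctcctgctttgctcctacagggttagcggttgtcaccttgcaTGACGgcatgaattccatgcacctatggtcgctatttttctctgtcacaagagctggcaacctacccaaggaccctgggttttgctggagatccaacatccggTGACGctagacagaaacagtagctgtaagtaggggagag

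Over all 32851 promoters of the same length, TGACG was in 17.8%, CCAAT in 33.8%, TATAAA in 12.4%, CACGTG in 6.02%, GTAAACA in 3.17%, TGACGTCA in 1.55% and CAAAGTCCA in 0.384%. At least 3 CCAAT boxes were in 2.79% of promoters and at least 5 in 0.213%. Of the 15 annotated starts of the 10 genes, 14 were in the table, and TGACG was in 5, CCAAT in 6, TATAAA in 2 and CACGTG in 1 of them. TGACGTCA, GTAAACA and CAAAGTCCA were in 0 of the 14. The 5 with TGACG include 2 Slc37a4 starts whose stretches overlap and share a match, at -61 of one and -214 of the other. All of these are matches of letters and not measured binding. The start of Ppargc1a at position 51553921 of chromosome 5 had no entry.

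RNA-seq asks whether the genes of glucose production differed between refed JMJD1C-LKO and refed WT liver. 9 of the 10 genes were higher in the libraries labelled JMJD1C-LKO and 0 were lower, by edgeR's quasi-likelihood test with a Benjamini-Hochberg adjusted p of at most 0.05 over all 14151 genes tested. Of all genes tested 14.6% were higher and 13.4% lower. All 10 log2 fold changes were above 0, so 0 genes were lower at an unadjusted p under 0.05 too, and DESeq2 and limma-voom also called 0 lower. The median log2 fold change was 0.45 for the 10 genes and 0.01 for all genes tested. The differences fell in a wide range, from 6.39-fold for Got1 to 1.23-fold for Fbp1, with Gcgr near equal. The paper's discussion, in contrast, states that loss of JMJD1C left gluconeogenic genes unaffected. Its RT-qPCR compared the response to refeeding between the genotypes, whereas these RNA libraries hold refed liver only.

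The targeted gene did not pass the test, though both JMJD1C-LKO libraries lay below both WT libraries. Jmjd1c was at 21.99 and 22.8 CPM (reads scaled to library size with TMM) in the WT and at 20.04 and 20.5 CPM in the JMJD1C-LKO libraries, a log2 fold change of -0.14 (SE 0.08, adjusted p = 0.233). The counts were summed over whole transcripts, so they do not show whether the deleted exons were lost, and groups are named by their labels throughout. Total counts lay between 51265128 and 54400509 per library, with TMM factors from 0.961 to 1.018.

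Levels of different genes were compared as TPM, which also corrects for transcript length. In WT refed liver the order was Fbp1 (1595 ± 100.4 TPM, SD, n = 2), Pck1 (890.0 ± 133), G6pc (256 ± 27.8), Pcx (249 ± 11.7), Gcgr (224 ± 1.28), Creb3l3 (221 ± 3.91), Slc37a4 (187 ± 16.2), Got1 (61.9 ± 1.54), Foxo1 (17.5 ± 0.43) and Ppargc1a (2.37 ± 0.056). Each enzyme stood above the regulators Foxo1 and Ppargc1a in these libraries. The libraries of G6pc and Pcx overlapped, as did those of Gcgr and Creb3l3, so neither pair has an order.

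In the JMJD1C-LKO libraries Pck1 stood first, at 2203 ± 369 TPM, and Fbp1 second, at 1932 ± 7.57 TPM. Got1 moved up past Slc37a4, Creb3l3, Gcgr and Pcx by mean level, to 391 ± 139 TPM, beside G6pc at 413 ± 132 TPM. Its libraries, at 293 and 489 TPM, overlapped those of G6pc and those of Pcx (290 and 314 TPM). Got1 thus has no order against G6pc or Pcx. Foxo1 (24.3 ± 4.42 TPM) and Ppargc1a (7.70 ± 1.67 TPM) stayed last.

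**Figure D1:**
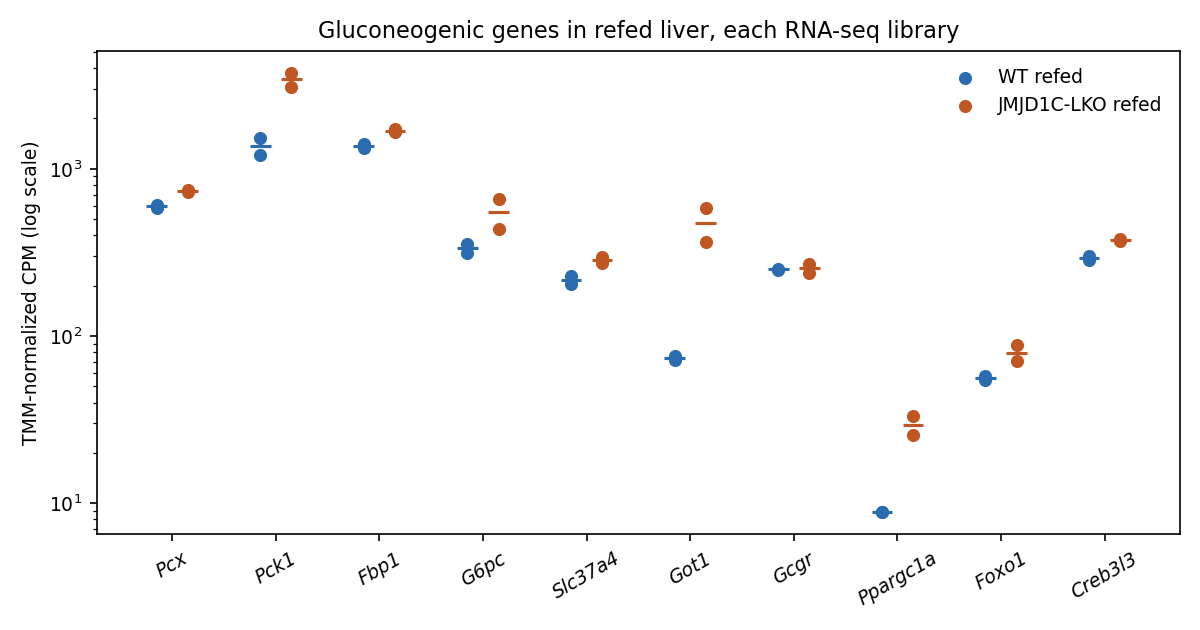
TMM-normalized CPM (log scale) of the 10 genes in each RNA-seq library of WT refed (blue) and JMJD1C-LKO refed (orange) liver, with the mean of 2 libraries as a line. The groups do not overlap for 9 genes and overlap for Gcgr, and the widest gap is that of Got1, from 72.0 and 76.2 to 365 and 581 CPM.

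Among the enzymes of the early steps, Got1 differed most. Got1, the cytosolic aspartate aminotransferase that interconverts aspartate and oxaloacetate for the carbon shuttle out of mitochondria, was at 76.2 and 72.0 CPM in WT and at 365 and 581 CPM in JMJD1C-LKO libraries. Both JMJD1C-LKO libraries lay far above both WT libraries but differed from each other by 1.59 times. The log2 fold change was 2.67 (SE 0.18, adjusted p = 3.91e-05), and Got1 had rank 25 by p among all genes tested.

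Pck1, the enzyme that commits oxaloacetate to glucose, was at 1525 and 1206 CPM in WT and at 3104 and 3755 CPM in JMJD1C-LKO libraries. The groups stood well apart, with a 2.51-fold difference (95% interval 2.05 to 3.08, adjusted p = 2.10e-04). Pcx, which supplies the oxaloacetate, differed far less, at 584 and 611 against 727 and 750.0 CPM, a log2 fold change of 0.30 (SE 0.08, adjusted p = 0.0203). Both annotated Pcx transcripts carried the difference in like measure, the upstream one taking 42.9% to 43.6% of the estimated counts in each library.

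Of the late steps, G6pc was at 313 and 357 CPM in WT and at 438 and 661 CPM in JMJD1C-LKO libraries. All JMJD1C-LKO values were higher, yet those 2 libraries differed from each other by 1.51 times, so the size of the difference is loosely fixed. Its log2 fold change was 0.71 (SE 0.16, adjusted p = 0.0109), and DESeq2 in place of edgeR gave an adjusted p of 0.0742. Slc37a4, which carries glucose 6-phosphate into the endoplasmic reticulum for G6pc to act on, was at 206 and 227 against 275 and 298 CPM, a log2 fold change of 0.40 (SE 0.09, adjusted p = 0.0088). Fbp1 was at 1324 and 1416.5 against 1728 and 1657 CPM, a log2 fold change of 0.30 (SE 0.09, adjusted p = 0.0258).

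Of the regulators, Ppargc1a, which encodes the coactivator PGC-1α, differed most. It was at 8.82 and 8.91 CPM in WT and at 25.5 and 33.1 CPM in JMJD1C-LKO libraries. The WT libraries were nearly equal and both JMJD1C-LKO libraries stood far above them, with a 3.30-fold difference (95% interval 2.71 to 4.03, adjusted p = 5.40e-05). Counts went to 3 transcripts, and the 1 that starts farthest upstream, a non-coding transcript, took 42.3% to 48.9% of them in each library.

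Foxo1 was at 58.0 and 54.8 CPM in WT and at 71.3 and 88.1 CPM in JMJD1C-LKO libraries, a log2 fold change of 0.50 (SE 0.10, adjusted p = 0.0073). Creb3l3, which encodes the liver factor CREBH that is activated in fasting, was at 300.1 and 286 against 370.3 and 379 CPM, a log2 fold change of 0.35 (SE 0.08, adjusted p = 0.0100). In both genes the groups did not overlap. Message levels do not show where the Foxo1 protein is in the cell, nor whether CREBH is cleaved to its active form.

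Gcgr, the receptor through which glucagon acts on the liver, was the member that did not pass the test. It was at 252 and 249 CPM in WT and at 238 and 271 CPM in JMJD1C-LKO libraries, so the WT values lay between those of the other group. The log2 fold change was 0.02 with a 95% interval from -0.17 to 0.22 (adjusted p = 0.876), and its sign turned with total-count scaling and without 1 library. An increase of the size seen for Slc37a4 lies outside this interval.

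Pck1, Got1 and Ppargc1a were called in each of the 11 alternative fits. The other 6 calls were lost when either WT library was left out, with log2 fold changes from 0.25 to 0.81, and all genes called higher then fell from 2066 to 789 or 660.

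**Figure D2:**
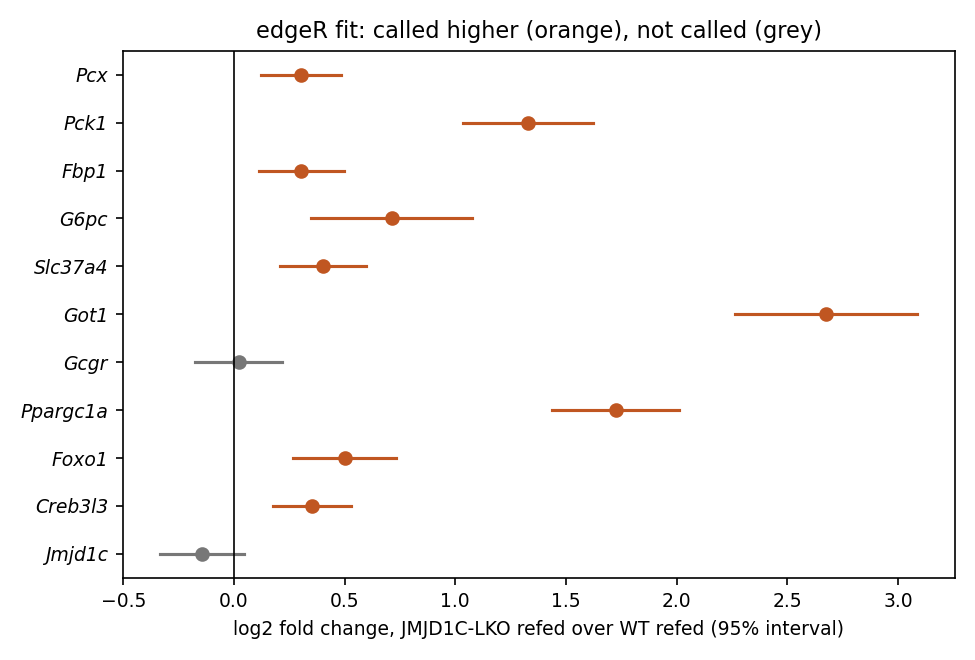
Log2 fold change of JMJD1C-LKO refed over WT refed liver from edgeR, with its 95% interval, for the 10 genes and Jmjd1c. Orange genes passed the test and grey ones did not; the interval of Gcgr runs from -0.17 to 0.22 and that of Got1 from 2.26 to 3.09.

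Markers of several other liver cells moved with the genotype label as well, where 14.6% of all genes tested were higher. 7 of 7 Kupffer cell genes were higher in the JMJD1C-LKO libraries (summed level 234 to 239 CPM in WT, 465 to 675 CPM in JMJD1C-LKO), as were 5 of 6 endothelial genes (93.6 to 96.5 against 130 to 174 CPM), 2 of 6 stellate cell genes (189 to 195 against 208 to 252 CPM) and 2 of 6 lymphocyte genes (3.70 to 4.26 against 7.43 to 8.98 CPM). Of 5 erythroid genes 1 was higher (587 to 1059 against 917 to 927 CPM), and cholangiocyte genes were level, with 0 of 5 called by edgeR and a summed level of 26.5 to 29.7 CPM in WT and 25.7 to 28.6 CPM in JMJD1C-LKO libraries. Of 7 hepatocyte genes measured, 2 were higher, and their summed level was 115844 to 118355 CPM in WT and 105901 to 118166 CPM in JMJD1C-LKO libraries. Of zone markers, 3 of 8 periportal genes (6798 to 7244 against 8889 to 9836 CPM) and 3 of 8 pericentral genes (9014 to 9452 against 10804 to 11546 CPM) were higher. In whole liver, a change in the number of cells of a type and a change in RNA per cell cannot be told apart. The part of these cells in the differences of the 10 genes was not tested.

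Around the 10 genes, 5 lists of genes that feed, regulate or oppose glucose production held 105 tested genes, of which 34 (32.4%) were higher and 15 (14.3%) lower, against 14.6% and 13.4% of all genes tested. The share of lower genes was thus near that of all genes. Their median log2 fold change was 0.08. The 34 include Ppp1r3g, which passed the filter on low counts only through the JMJD1C-LKO libraries. The lists were unlike one another.

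The reversible enzymes that glycolysis and gluconeogenesis share were close to equal. Of 13 tested, 0 were higher and 1 (7.69%) was lower, against 14.6% and 13.4% of all genes tested. The median log2 fold change was 0.06. At an unadjusted p under 0.05 edgeR had 1 higher, DESeq2 called 1 higher and limma-voom 0. The number lower ran from 0 without either WT library to 2 without either JMJD1C-LKO library. The lower one was Gpi1 (glucose 6-phosphate isomerase), at 294 and 317 CPM in WT and 243 and 224 CPM in JMJD1C-LKO libraries (log2 fold change -0.39, SE 0.08, adjusted p = 0.0091). Pck2, the mitochondrial counterpart of Pck1, was lower in both JMJD1C-LKO libraries but did not pass the test (log2 fold change -0.44, adjusted p = 0.0504). Pck2 was chosen for mention after its values were seen.

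Genes that supply carbon to the pathway differed mostly in 1 direction. Of 24, 13 (54.2%) were higher and 2 (8.33%) lower, against 14.6% and 13.4% of all genes tested. The median log2 fold change was 0.37. Without WT replicate 2 the number higher was 6. Tat (tyrosine aminotransferase) was at 592 and 516 CPM in WT and at 1992 and 2908 CPM in JMJD1C-LKO libraries (log2 fold change 2.15, SE 0.16, adjusted p = 5.67e-05). Slc7a2, a transporter of cationic amino acids, rose from 167 and 157 to 492 and 688 CPM (1.87, SE 0.14, adjusted p = 5.66e-05), and Sds (serine dehydratase) from 102 and 86.3 to 254 and 333 CPM (1.64, SE 0.13, adjusted p = 7.54e-05). These 3 genes handle amino acids, as does Slc38a4, an amino acid transporter with a log2 fold change of 0.78 (SE 0.08, adjusted p = 2.52e-04). The 2 lower genes were Slc16a1, a carrier of lactate and pyruvate (-0.69, adjusted p = 7.74e-04), and Gpd2, the mitochondrial glycerol 3-phosphate dehydrogenase (-0.62, adjusted p = 9.52e-04).

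Transcription regulators moved in both directions. Beside 14.6% and 13.4% of all genes tested, 9 of 28 (32.1%) were higher and 6 (21.4%) lower, with a median of -0.08. Without WT replicate 2 these were 3 and 3, and without WT replicate 1 the number lower was 2. Higher were Klf15 (0.78, SE 0.09, adjusted p = 5.05e-04), a factor of amino acid breakdown in fasting, Cebpb (1.05, SE 0.13, adjusted p = 6.62e-04) and Ppargc1b, the relative of Ppargc1a (0.79, SE 0.10, adjusted p = 7.25e-04). Lower were Onecut1 (HNF6), at 25.6 and 26.6 CPM in WT and 12.95 and 9.58 CPM in JMJD1C-LKO libraries (-1.21, SE 0.13, adjusted p = 3.13e-04), and Nr1h4, the bile acid receptor FXR (-0.65, SE 0.09, adjusted p = 0.0011).

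Of 24 genes of glucagon and insulin signalling, 8 (33.3%) were higher and 2 (8.33%) lower, against 14.6% and 13.4% of all genes tested. The median log2 fold change was 0.12. Without WT replicate 2 the number higher was 4, and 0 were lower by edgeR without either WT library, 1 without JMJD1C-LKO replicate 2. Igfbp1, an insulin-repressed target of FOXO1 in the liver that binds insulin-like growth factors, was at 4.92 and 6.19 CPM in WT and at 375 and 829.6 CPM in JMJD1C-LKO libraries (log2 fold change 6.76, SE 0.37, adjusted p = 1.10e-05). Adcy9, an adenylyl cyclase, rose by 0.98 (SE 0.09, adjusted p = 1.29e-04), Sik1, a kinase that restrains CREB coactivators, by 1.14 (SE 0.15, adjusted p = 8.13e-04), and Sgk1 by 1.22 (SE 0.21, adjusted p = 0.0029). The lower genes were Gnas, the G protein that couples Gcgr to adenylyl cyclase (-0.34, adjusted p = 0.0158), and Pik3r1, a regulatory subunit of PI3-kinase (-0.34, adjusted p = 0.0275).

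Genes that use or store glucose were called in both directions. Of 16, 4 (25%) were higher, Ppp1r3g among them, and 4 (25%) lower, against 14.6% and 13.4% of all genes tested. The median log2 fold change was -0.11. The number lower was 2 without either WT library or with DESeq2, and 7 without JMJD1C-LKO replicate 1. Ppp1r3g, a glycogen-targeting subunit of protein phosphatase 1, was barely detected in WT, at 0.116 and 0.153 CPM, and was at 16.2 and 40.3 CPM in JMJD1C-LKO libraries. It passed the filter on low counts only through the JMJD1C-LKO libraries, so no fold change is given and its call is not read as a result. Pfkfb1 (0.72, adjusted p = 6.52e-04) and Pfkfb2 (0.66, adjusted p = 0.0017), which set the level of the Fbp1 inhibitor fructose 2,6-bisphosphate, were higher. Pklr, the liver pyruvate kinase, fell from 308 and 371 to 192 and 123.8 CPM (-1.11, SE 0.18, adjusted p = 0.0020).

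**Figure D3:**
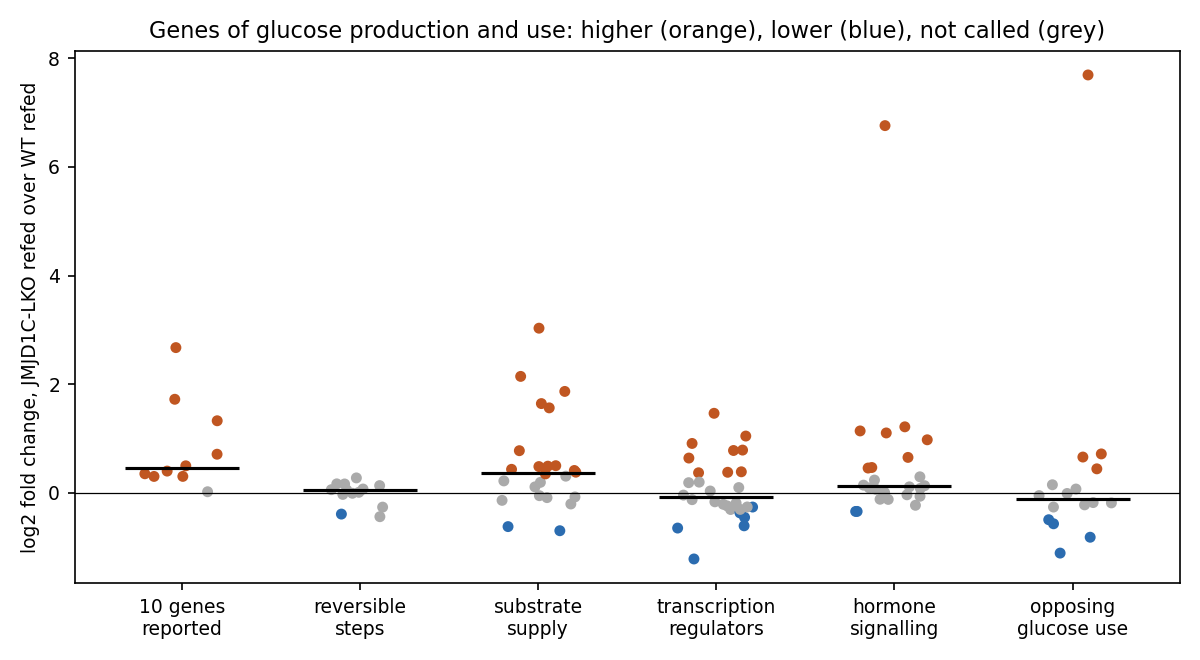
Log2 fold change of JMJD1C-LKO refed over WT refed liver for each tested gene of the 10 reported genes and of the 5 surrounding lists, with the median as a black line (orange higher, blue lower, grey not called). Substrate supply has 13 of 24 genes higher, the reversible steps 0 of 13, and opposing glucose use 4 higher, Ppp1r3g among them, and 4 lower. The point at 6.76 is Igfbp1, and the one above it is Ppp1r3g, whose WT level was too low for a firm value.

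ATAC-seq asks whether chromatin at the starts of these genes was open in fasted, refed and JMJD1C-LKO refed liver. The deposited lists hold peak summits called in each liver, and a gene was counted when an annotated start had a summit at most 1000 bp away. In WT fasted liver 1 gene (sample 1) and 2 genes (sample 2) of the 10 had such a summit, against 12.0% and 5.49% of all 26180 annotated genes. In WT refed liver it was 1 gene in each, against 9.94% and 6.24% of all genes. In JMJD1C-LKO refed liver it was 0 in each, against 4.06% and 0.886% of all genes. Most of the 10 genes thus had no such summit in any liver. The lists were sparse for other expressed genes too. Of the 7641 genes with a WT level at or above that of Ppargc1a, at most 24.8% had one (WT fasted sample 1). The lowest share was 1.71% (JMJD1C-LKO refed sample 2). The share of these genes without a summit in every liver was not counted. The lack of a summit is therefore not read as particular to the 10 genes, nor as closed chromatin.

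The lists differed widely in length, with 5220 and 7632 summits for fasted, 5027 and 3119 for WT refed and 1450 and 825 for JMJD1C-LKO livers. With at least 1 sample per group counted, 2 genes had a summit in WT fasted liver (background 13.1%), 2 did in WT refed liver (11.4%) and 0 did in JMJD1C-LKO liver (4.55%). With each list shortened to its 825 strongest summits, 0 genes had one in any group, so the counts move with list length. No test was made of these counts, since 2 samples against 2 cannot give an exact two-sided permutation p under 0.33.

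Creb3l3 was the 1 gene of the 10 whose summit recurred in both samples of a group, WT fasted liver, where 4.36% of all genes had one in both. One was called in WT fasted sample 1, 304 bp upstream of the internal start, and one in WT fasted sample 2, 296 bp upstream, inside the 200-base window shown above. They ranked 1752 of 5220 and 1809 of 7632 by score, the -log10 of the q-value. In the 4 refed livers the nearest summit lay 22637 to 38560 bp from a start of Creb3l3.

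Got1 had a summit 75 bp upstream of its start in WT fasted sample 2 (score 5.82) and 41 bp upstream in WT refed sample 2 (score 4.45), and the nearest in the other 4 livers was 16905 bp or more away. Both lie in the printed stretch that holds the CCAAT boxes. Pcx had a summit in WT refed sample 1 alone, 154 bp before its upstream start (score 6.69). Pck1, G6pc, Fbp1, Slc37a4, Gcgr, Foxo1 and Ppargc1a had no ATAC-seq summit this close in any liver. For Pck1 and G6pc the nearest was at least 153168 and 184351 bp away in these lists.

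Farther from the starts, Ppargc1a had 1 intronic summit in each fasted liver, 42241 bp and 72318 bp past the start at position 51553921, which are different places. The second lies in sequence that is wholly repeat-masked, and 78.0% of the summits of that liver were in repeats, against 18.6% to 48.4% in the other 5. A summit 9136 bp past the last start of Slc37a4 in WT fasted sample 1 lay 58 bp from the start of its neighbour Trappc4.

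H3K9me2 ChIP-seq asks where the mark lay at these genes in fasted and in refed WT liver. WT refed sample 1 stood apart from the other 3: it had 1297 summits against 7690 to 13456, 73.0% of them in repeats against 1.04% to 1.87%. Of its summits 0.308% to 2.0% lay within 200 bp of one in another H3K9me2 sample. By ATAC-seq sample, 12.0% to 13.8% lay that close to one, against 0.181% to 6.81% of the summits of the other 3. Counts for refed liver are therefore given with and without it.

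A summit lay within 1000 bp of a start in 7 of the 10 genes in WT fasted sample 1, in 9 in WT fasted sample 2, in 0 in WT refed sample 1 and in 9 in WT refed sample 2. The shares of all annotated genes were 29.3%, 42.7%, 0.233% and 35.1%. By group, 9 genes had one in at least 1 fasted liver (background 42.9%) and 9 in at least 1 refed liver (background 35.3%), and 7 and 0 had one in both, against 29.1% and 0.042% of all genes. Without WT refed sample 1 the refed count is 9, and without WT refed sample 2 it is 0.

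Among the 7641 genes with a WT level at or above that of Ppargc1a, the lowest of the 10, the same shares were 76.7%, 94.8%, 0.131% and 87.0%, whereas of 10991 genes not in the count table they were 4.29%, 7.11%, 0.391% and 5.26%. The counts of the 10 genes were thus close to those of other genes expressed at such levels, and are no result particular to them.

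**Figure D4:**
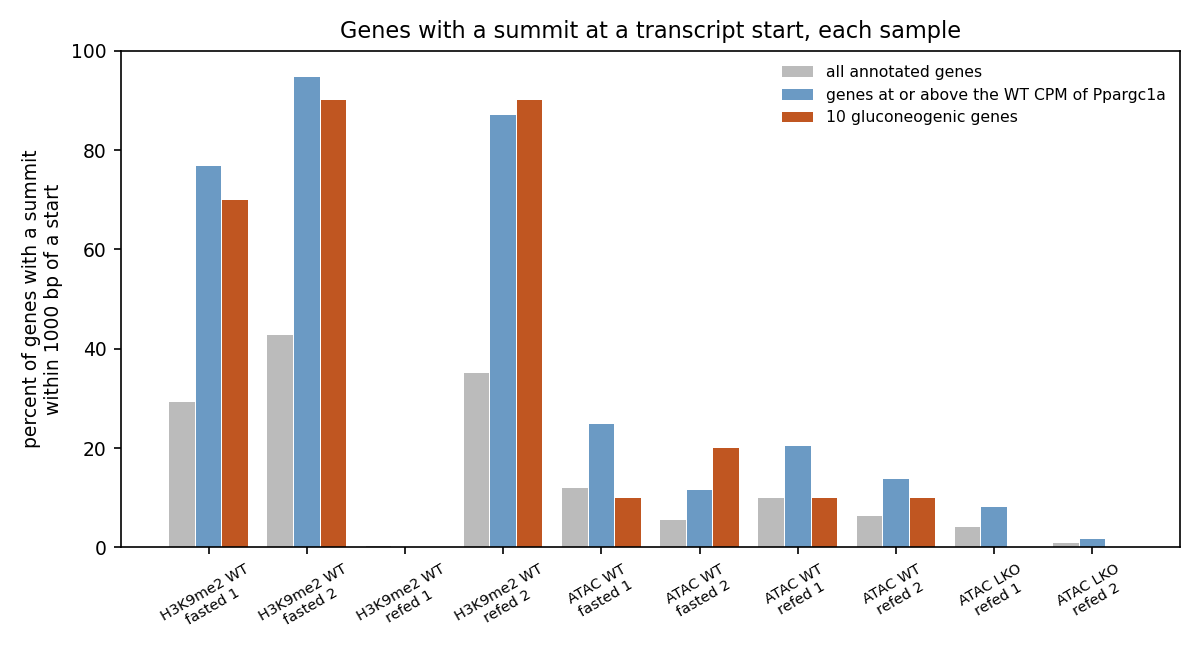
Percent of genes with a summit within 1000 bp of a transcript start in each chromatin sample, for all annotated genes (grey), the genes at or above the WT CPM of Ppargc1a (blue) and the 10 gluconeogenic genes (orange). In 3 H3K9me2 samples 7 to 9 of the 10 genes had a summit beside 76.7% to 94.8% of the similarly expressed genes, WT refed sample 1 had nearly none, and ATAC-seq had at most 2 of the 10.

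Most summits of the mark that lay within 1000 bp of a start were downstream of it. Of the summits within 1000 bp of a start of the 10 genes, 8 of 9, 10 of 14 and 11 of 12 were downstream in WT fasted samples 1 and 2 and WT refed sample 2, with medians of 357, 318 and 327 bp. Over all genes the medians were 267, 226 and 267 bp, and 88.6%, 83.2% and 86.5% of the summits were downstream.

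Fbp1 had an intronic summit at 450 bp and 429 bp in the fasted livers and at 525 bp in WT refed sample 2, and a weaker one before the start, at -479 bp, in WT fasted sample 2. The downstream summit ranked 662 of 7690, 833 of 13456 and 106 of 9929 by score. At Pck1 no summit was called in WT fasted sample 1 and the nearest lay 152761 bp away, while WT fasted sample 2 had one at 599 bp and WT refed sample 2 at 672 bp, both in an intron. G6pc had 1 summit in each of the same 3 livers, at 1188, 689 and 329 bp, the first just outside the window of 1000 bp.

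Pcx had a summit at 314, 327 and 325 bp past its upstream start in the same 3 livers, at nearly the same place. At its downstream start one was called at 347 bp in WT fasted sample 2 and at 407 bp in WT refed sample 2, and WT fasted sample 2 had a further one before the first start, at -585 bp. Got1 had a summit at 393, 348 and 347 bp. WT fasted sample 2 had a further summit 430 bp upstream of Got1, on the other side of where the ATAC-seq summits lay.

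Slc37a4, with 3 annotated starts, carried the mark after 2 of them, at 218 and 427 bp, in WT fasted sample 1, after 1 start, at 271 bp, and before another, at -291 bp, in WT fasted sample 2, and after 2, at 285 and 278 bp in WT refed sample 2. The highest of these ranked 223 of 7690. Gcgr, whose message did not pass the test in RNA-seq, had a summit at 357, 204 and 309 bp, at ranks like those of the other genes (1627 of 7690, 823 of 13456 and 2419 of 9929).

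Foxo1 had a summit in an exon at 381, 329 and 309 bp, and WT fasted sample 1 and WT refed sample 2 each had a second one upstream, at -442 and -506 bp. Creb3l3 had its mark 336, 308 and 376 bp past the internal start, in the top 1.60%, 1.26% and 2.98% of each list by score. Of the bases around them 48.8%, 48.8% and 58.2% are repeat-masked, and with summits in repeats left out Creb3l3 was not counted in WT refed sample 2, where 8 of the 10 genes remained. Its other start, at position 81098872 of chromosome 10, had no summit of either assay this close in any sample. The RNA-seq counts hold an entry of Creb3l3 for the transcript of that other start only. They therefore cannot show which start was used.

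Ppargc1a was the gene with no H3K9me2 summit within 1000 bp of a start in any liver. Its nearest summits lay in an intron at 1301, 1739 and 1758 bp from the start at position 51553921, and it was counted once the window was widened to 2500 bp or predicted transcript starts were added. In WT fasted sample 1 that summit was weak, at rank 7513 of 7690.

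**Figure D5:**
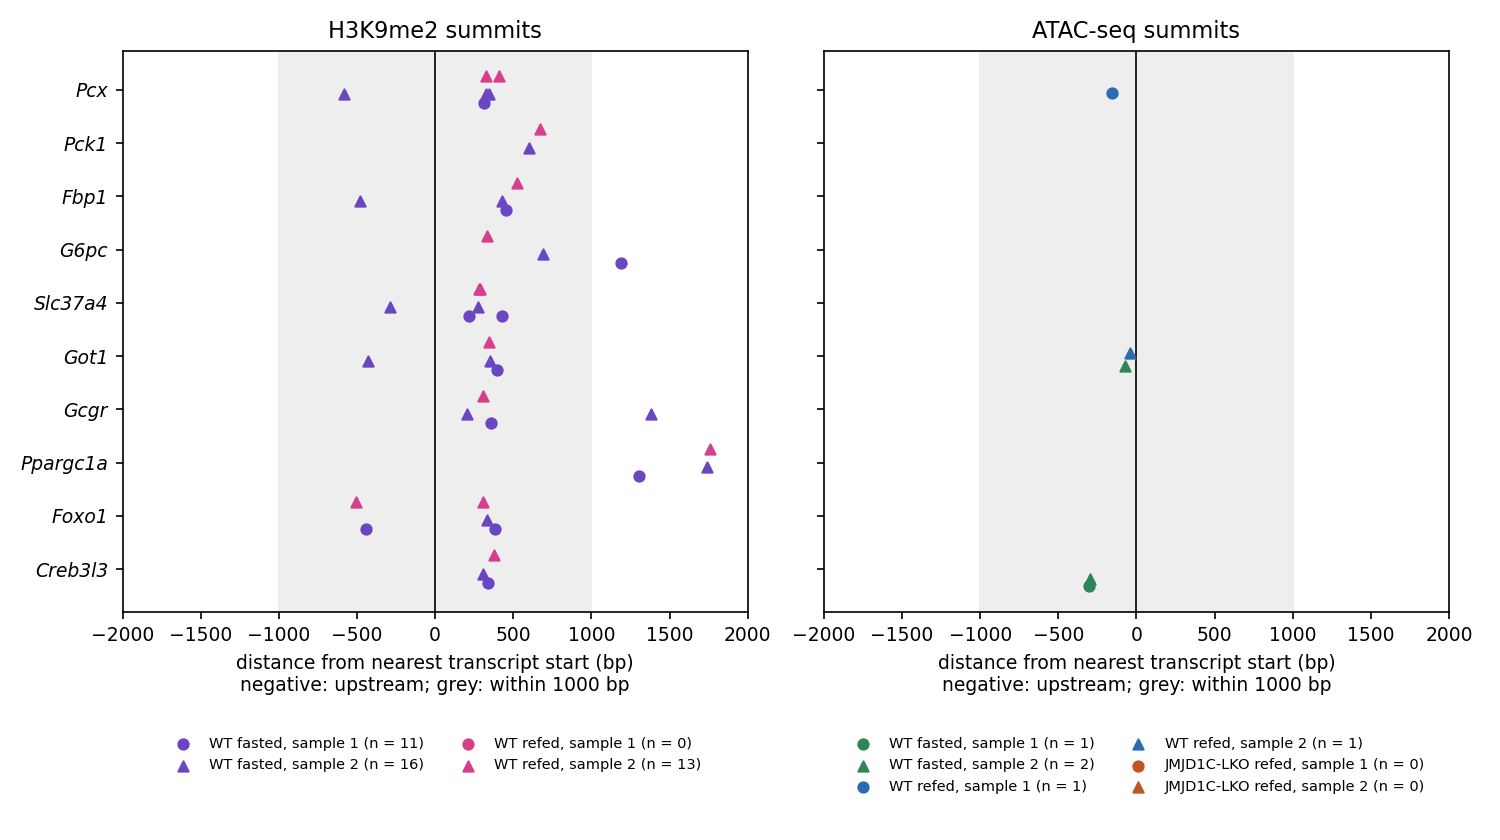
Distance of H3K9me2 summits (left) and ATAC-seq summits (right) from the nearest annotated start of each of the 10 genes, in bp along transcription, for each liver, drawn within 2000 bp. H3K9me2 summits gather downstream of the starts in 3 of 4 livers and WT refed sample 1 has none, while ATAC-seq summits are seen at Pcx, Got1 and Creb3l3 only, all upstream.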

How the data were processed

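The authors called peaks for each liver in MACS2 (q-value cutoff 0.05; ATAC-seq after BWA-backtrack; ChIP-seq after Bowtie2, unique reads, at least 2.5-fold over the input of the same sample). The deposited lists hold summits (mm10) with a score, the -log10 of the q-value, and neither widths nor reads, so depth is unknown and scores were read only as ranks in their own list. Fasted and refed ChIP samples were read from F and R in their titles, as all labels share 1 treatment text. Input samples were not analysed on their own here. For RNA-seq the deposited values are estimated counts of RefSeq transcripts, without normalization; how they were made is not given in the sources used here, though the submitters' notes name HISAT2 and Partek. A table of the authors' own fold changes and p-values was not used.

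Estimated counts were summed per gene and rounded, kept by filterByExpr, scaled by TMM and tested with edgeR 4.0.16 (R 4.3.3; quasi-likelihood, no block, Benjamini-Hochberg over 14151 genes), each group with 2 libraries, whose p-values measure the spread between pools. The test was checked on simulated counts. Starts were those of NM_ and NR_ transcripts of 26180 genes in RefSeq for GRCm38.p6. Alternatives were DESeq2 1.42.0, limma-voom 3.58.1, RLE and total-count scaling, no filter, a replicate block, the most abundant transcript, each library left out, windows of 500 and 2500 bp, the gene body, a score of at least 5, equal list lengths, predicted starts, no repeats and both samples. All 10 genes were named, with up to 4 genes of smallest p per list and up to 2 called against the list's main direction. The 10 genes, lists and tests were chosen with earlier results of these data known.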

Additional observations from a re-analysis of the deposited data

How the results depend on the processing

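Of the 9 genes called higher, 3 kept their call with WT replicate 1 or with WT replicate 2 left out, so the count ran from 3 to 9 over the fits without 1 library, and it was 3 when the most abundant transcript of each gene was tested. That last fit tested all transcripts together in place of summed genes. There the log2 fold changes of the 6 genes that lost their call were 0.30 (Pcx), 0.31 (Fbp1), 0.72 (G6pc), 0.41 (Slc37a4), 0.50 (Foxo1) and 0.36 (Creb3l3). These were close to the values reported, with adjusted p from 0.0609 to 0.111 by edgeR. For Fbp1, G6pc, Foxo1 and Creb3l3, 1 transcript held 100% of the counts, so the counts of these genes were the same in both fits. The log2 fold change of Gcgr turned to -0.013 with total counts only and ran from -0.074 (without JMJD1C-LKO replicate 2) to 0.11 over the fits without 1 library. For the 5 lists together the fits without 1 library gave 16 to 35 genes higher and 6 to 23 lower. Members with an ATAC-seq summit numbered 0 at equal list length in both WT groups, 1 (fasted) and 0 (refed) when both samples had to have it, and 1 in WT refed liver at a score of at least 5, and 1 to 2 without 1 replicate. Members with an H3K9me2 summit numbered 5 (fasted) and 4 (refed) at equal list length and 0 in refed liver when both samples had to have it, and 0 to 9 without 1 replicate. The causes were not tested.

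The replicate numbers are shared by both genotypes, but the deviations of same-numbered libraries did not go together (r = -0.02 across genes, which are not independent replicates). With the replicate block 2211 genes were higher and 1996 lower, and 9 of the 10 genes were called, as without it.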
